A study of Mus musculus with 6 samples.

Results

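The response of mature microRNAs (miRNAs) to retinoic acid (RA) in mouse embryonic stem cells lacking Wt1 was set against the response in wild-type (WT) cells. For each miRNA the log2 ratio of RA over untreated was taken in each genotype, and the ratio in WT was subtracted from the ratio in Wt1 KO. Members were miRNAs whose count averaged 50 or more across the 4 libraries compared, and 345 of the 1899 entries of the deposited tables met this. The 4 libraries came from Wt1 KO cells with RA, untreated Wt1 KO cells, WT cells with RA and untreated WT cells, with 1 library each. All were embryonic stem cells of strain 129/Ola grown without a named feeder layer, on gelatin in medium with serum and leukemia inhibitory factor. The label gives the RA dose as 1 µm, read here as micromolar, and the duration of RA is not given in the sources used here. How many clones the Wt1 KO cells represent is not given either. The 2 libraries of cells induced with doxycycline, which also belong to the 6 libraries of the series, entered the scaling factors only. Wt1 itself is a protein-coding gene that these libraries do not measure, so the knockout could not be checked against its RNA.

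A difference of this kind asks whether the cells respond to RA in another way when Wt1, a zinc finger transcription factor of kidney and gonad development, is missing. RA binds nuclear receptors and pushes embryonic stem cells out of self-renewal. In mouse cells the miR-290 cluster, the dominant miRNA cluster of the pluripotent state, is normally shut down on differentiation, while miRNAs encoded within the HOX gene clusters are switched on by RA. A miRNA recognises its targets mainly through its seed, bases 2 to 8 from the 5′ end, so miRNAs with the same seed share many targets even when they come from different chromosomes.

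The sequences that the results turn on are printed here from the RefSeq table (build GRCm38.p6), where they equal the deposited sequences with U for T. Capitals mark the seed. Of the 345 miRNAs, 294 were found by name in that table. The 4 miRNAs below share a seed but come from the miR-290 cluster on chromosome 7 and, for miR-302d-3p, from the miR-302 cluster on chromosome 3. All 4 were far lower with RA in WT, and the drop was smaller in Wt1 KO.
miR-291a-3p: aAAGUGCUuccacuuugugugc
miR-294-3p: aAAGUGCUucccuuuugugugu
miR-295-3p: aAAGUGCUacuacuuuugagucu
miR-302d-3p: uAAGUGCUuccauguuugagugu
The miR-181 miRNAs also share a seed, and their differences went in opposite directions by locus. miR-181a-5p comes from chromosomes 1 and 2, while miR-181c-5p and miR-181d-5p come from chromosome 8.
miR-181a-5p: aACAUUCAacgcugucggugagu
miR-181c-5p: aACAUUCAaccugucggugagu
miR-181d-5p: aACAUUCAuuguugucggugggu
The 2 miR-10 miRNAs of the HOX clusters share a seed and had weaker responses in Wt1 KO.
miR-10a-5p: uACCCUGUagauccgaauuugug
miR-10b-5p: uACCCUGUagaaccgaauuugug
The last set holds miRNAs of other loci, of which miR-470-5p and miR-21a-5p moved in opposite directions in the 2 genotypes, miR-92a-1-5p was higher with RA in Wt1 KO alone by the size rule, and miR-182-5p and miR-541-5p were lower with RA in Wt1 KO alone.
miR-470-5p: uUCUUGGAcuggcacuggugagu
miR-21a-5p: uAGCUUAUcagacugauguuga
miR-92a-1-5p: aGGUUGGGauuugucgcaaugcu
miR-182-5p: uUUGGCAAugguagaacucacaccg
miR-541-5p: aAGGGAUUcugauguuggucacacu

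Depth differed 73.0-fold between the libraries. The total of uniquely matched reads was 83626 in Wt1 KO with RA, 1768862 in untreated Wt1 KO, 6106104 in WT with RA and 1063945 in untreated WT. The Wt1 KO library with RA is thus the least precise, with a median of 16 reads per miRNA, and the upper limit of 3 counts that goes with a count of 0 equals 27.8 normalised CPM there and 0.448 in WT with RA. Normalised CPM are counts scaled to the same library size. Both untreated libraries carried the cluster that marks embryonic stem cells, as miR-290 cluster miRNAs made up 16.8% [16.8 to 16.9] of the reads in untreated Wt1 KO and 16.0% [16.0 to 16.1] in untreated WT (Wilson 95% intervals). Just above the minimum mean count stood miR-126a-5p, miR-3535 and miR-363-5p, each with a mean of 50.25 reads, and just below it miR-3470b with 49.25. The difference was 1.54 for miR-126a-5p, -0.37 for miR-3535 and 0.39 for miR-3470b, and miR-363-5p had no read in Wt1 KO with RA.

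A difference was called higher or lower in Wt1 KO when it was at least 1 in size on the log2 scale and its 95% interval excluded 0. The interval, given in brackets, comes from the 4 counts, with 1 library per group, and covers counting error only. No molecular identifiers were used, so copies made by PCR count as separate reads and the interval can be too narrow even for counting error. With 1 library per group there is no replicate check and no test of significance, and every statement compares these libraries, not the conditions. In a bulk library, fewer cells of a type and less of a miRNA per cell cannot be told apart.

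The response to RA was higher in Wt1 KO than in WT for 75 of the 345 miRNAs (21.7%) and lower for 52 (15.1%), 36.8% in either direction, and the median difference was 0.04. The middle 50% of all differences lay between -0.88 and 1.13. The split of the calls depended on the minimum mean count. It was 111 higher and 52 lower with a minimum of 10, 137 and 52 with none, and 46 and 47 with 200. The responses in Wt1 KO and WT, which share no library, correlated across miRNAs with Pearson's r at 0.70 and Spearman's rho at 0.61, over 345 miRNAs that cannot stand for independent replicates. Taken one genotype at a time by the same rule with an exact interval, 81 miRNAs were higher (23.5%) and 76 lower (22.0%) with RA in Wt1 KO, and 81 were higher (23.5%) and 74 lower (21.4%) with RA in WT. In both genotypes 45 were higher and 42 were lower. No miRNA was lower in Wt1 KO and higher in WT, while 5 were higher in Wt1 KO and lower in WT. The medians depended on which genotype chose the miRNAs. The 74 that were lower with RA in WT had a median response of -1.36 in Wt1 KO and -2.30 in WT, and the fall was smaller in Wt1 KO, or absent, for 63 of them. The 81 that were higher with RA in WT had a median response of 1.64 in Wt1 KO and 1.77 in WT, with the smaller rise in Wt1 KO for 47. Chosen by Wt1 KO, the order turned round. The 76 that were lower with RA in Wt1 KO had a median response of -1.68 in Wt1 KO and -1.40 in WT, and the 81 that were higher there had 1.99 in Wt1 KO and 1.27 in WT. These medians are a description, since the values of 1 genotype chose the miRNAs.

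The calls in the lower direction depended on how the libraries were scaled. As CPM of the total the split became 124 higher and 18 lower, by the median of ratios 93 and 38, and as CPM with both stem cell clusters left out 133 and 13, as the median of all differences shifted by 0.60, 0.25 and 0.72. Of the 75 higher calls 73 were kept under all 5 scalings tried, and of the 52 lower calls 13 were. TMM over the 4 libraries shifted the median by 0.04, and centring on the median shifted it by -0.04. No scaling tried moved the differences down by more than that, so the higher calls were hardly put to a test. The numbers kept thus do not compare higher with lower calls on equal terms. Groups are described below by their median relative to the median of all 345 miRNAs, which a change of scaling leaves as it is.

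**Figure D1:**
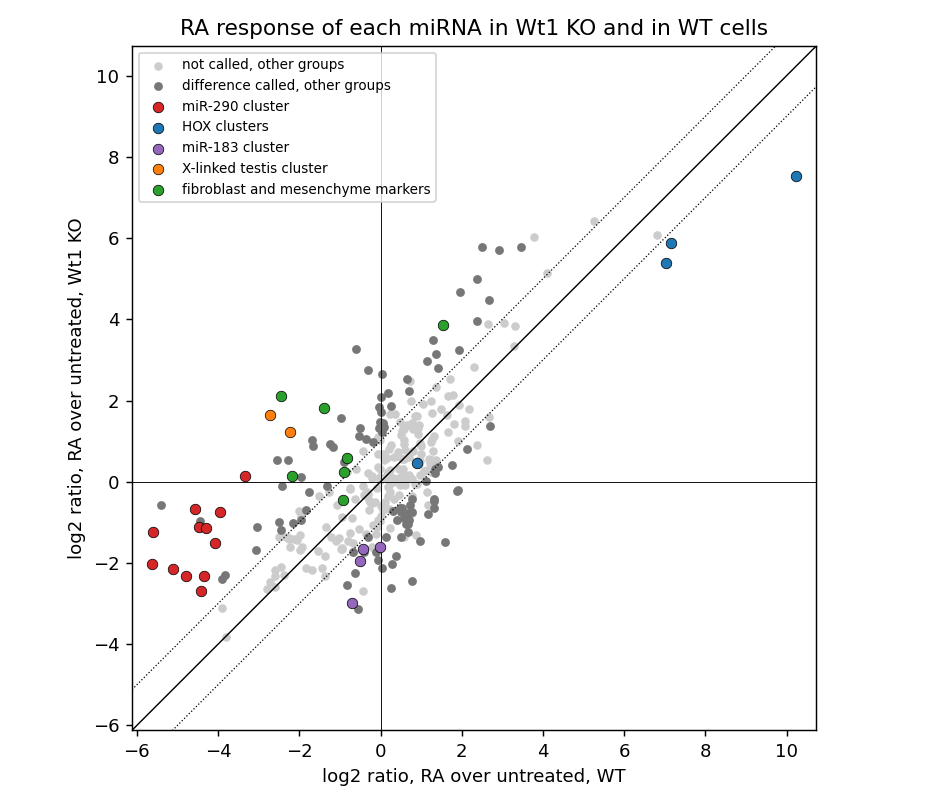
Each point is 1 miRNA with reads in all 4 libraries, placed by its log2 ratio of RA over untreated in Wt1 KO (y axis) and in WT (x axis). The solid line marks equal responses and the dotted lines a difference of 1. The 12 miR-290 cluster miRNAs lie above the line at the left, and miR-10a-5p, miR-10b-5p and miR-615-3p of the HOX clusters lie below it at the right.

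The miR-290 cluster fell with RA in WT cells and much less in Wt1 KO cells. All 12 measured miRNAs of the miR-290 cluster, whose 3p arms promote the rapid stem cell cycle, had a higher response in Wt1 KO, and their differences ran from 1.73 for miR-294-5p to 4.37 for miR-290a-3p, a call lost when libraries were thinned. The median of the cluster lay 3.13 above that of all 345 miRNAs, of which 21.7% were called higher. The 11 cluster members found in RefSeq span chr7:3218639-3220837, outside any annotated host gene in GENCODE M21.

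miR-295-3p, the most abundant of the cluster, had 33006 normalised CPM with RA and 72616 untreated in Wt1 KO cells, against 3446 with RA and 67688 untreated in WT cells. The untreated levels were close, and the level with RA stayed far higher in Wt1 KO, giving responses of -1.14 in Wt1 KO and -4.30 in WT and a difference of 3.16 [3.11 to 3.21]. miR-291a-3p had 1814 normalised CPM with RA and 2889 untreated in Wt1 KO cells, against 90.7 with RA and 2134 untreated in WT cells, a difference of 3.89 [3.64 to 4.13]. miR-291a-5p, from the other arm of that hairpin, had 6294 normalised CPM with RA and 25563 untreated in Wt1 KO cells, against 424 with RA and 20842 untreated in WT cells, a difference of 3.60 [3.47 to 3.72]. The 2 arms of miR-291a thus moved alike within the size rule. miR-292a-5p had 10635 normalised CPM with RA and 47471 untreated in Wt1 KO cells, against 827 with RA and 28679.7 untreated in WT cells, and its difference of 2.96 [2.86 to 3.05] was larger than that of its 3p arm, at 2.04 [1.91 to 2.16]. The 3p arm of miR-293 was at 3.20 [3.08 to 3.32] and its 5p arm at 3.48 [3.04 to 3.91], and miR-293-5p, with a response of 0.15, was the one member without a negative ratio in Wt1 KO.

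Read shares show the same contrast. The cluster held 9.40% [9.20 to 9.60] of the reads in Wt1 KO with RA, 16.8% [16.8 to 16.9] in untreated Wt1 KO, 0.751% [0.744 to 0.758] in WT with RA and 16.0% [16.0 to 16.1] in untreated WT.

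The miR-302 cluster, which marks the later, primed pluripotent state, had 2 of its 10 entries above the minimum count. miR-302d-3p, with the seed of miR-295-3p, had 7 reads with RA and 144 untreated in Wt1 KO cells, against 72 and 496 in WT cells. In normalised CPM these were 64.8, 102, 10.8 and 455 in the same order. Its ratio of Wt1 KO over WT was called higher with RA, at 2.68, and lower untreated, at -2.15, which held for no other miRNA, and its difference was 4.83 [3.72 to 5.95]. miR-302a-3p had no read in Wt1 KO with RA and 48 untreated, against 20 and 216 in WT, so its difference has only an upper bound and was not called. A smaller fall in Wt1 KO was thus seen for miR-302d-3p alone in this cluster, on 7 reads with RA.

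**Figure D2:**
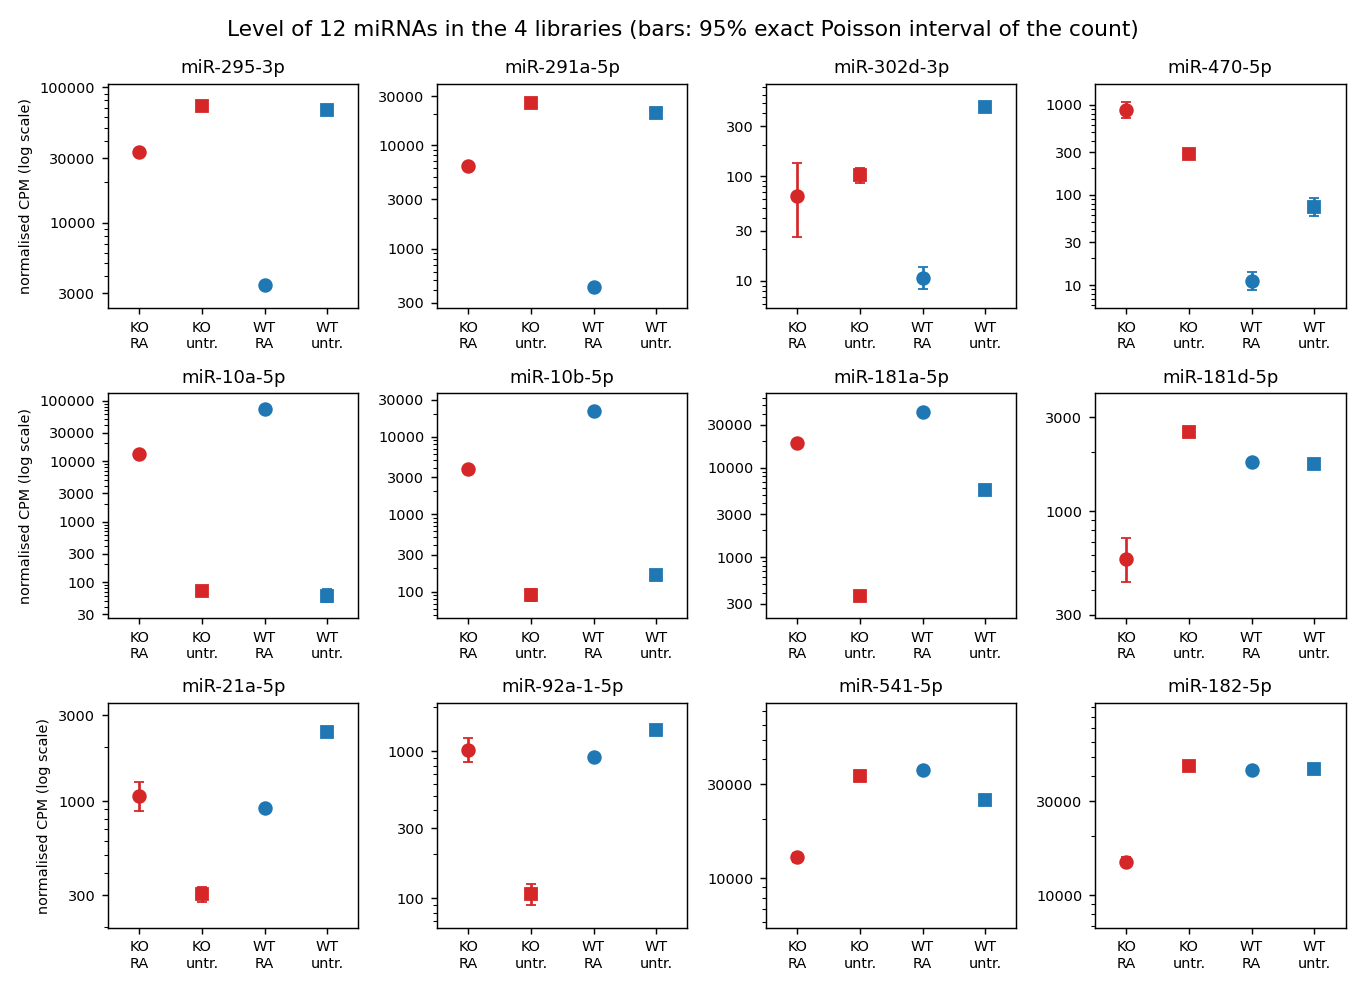
Normalised CPM (log axis, one scale per panel) of 12 miRNAs in the 4 libraries, with Wt1 KO in red, WT in blue, RA as circles and untreated as squares; bars are exact Poisson 95% intervals of each count. miR-295-3p with RA stands at 33006 in Wt1 KO and 3446 in WT, while miR-10a-5p stands at 13356 and 73357.

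A testis-associated cluster on the X chromosome moved in opposite directions in the 2 genotypes. miR-470-5p (chrX:66813995-66814017, minus strand) had 889 normalised CPM with RA and 283 untreated in Wt1 KO cells, against 11.2 with RA and 74.4 untreated in WT cells, with RA responses of 1.65 in Wt1 KO and -2.73 in WT. Its difference of 4.38 [3.83 to 4.94] had the highest lower bound of all miRNAs. miR-871-3p, from the same cluster (chrX:66810438-66810460), had 805 normalised CPM with RA and 348 untreated in Wt1 KO cells, against 29.4 with RA and 138 untreated in WT cells and a difference of 3.44. These were the 2 measured members of 36 entries, and both were also higher in untreated Wt1 KO, at 1.92 and 1.33.

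Many near-identical hairpins lie within an intron of Sfmbt2 in mouse, and their miRNAs were lower with RA in WT for all 23 measured miRNAs. In Wt1 KO 15 of the 23 were lower and 1 was higher. For comparison, 21.4% of all 345 miRNAs were lower with RA in WT and 22.0% in Wt1 KO, and 21.7% had a higher and 15.1% a lower difference. In this cluster the difference was higher in Wt1 KO for 8 of 23 and lower for none, and the cluster median lay 0.93 above that of all miRNAs. Among the 8, miR-466d-3p and miR-669o-5p were not kept under all 5 scalings. The 4 highest of the cluster were all 5p arms of miR-467 hairpins, miR-467a-5p at 2.72 [2.30 to 3.13], miR-467e-5p at 2.54 [1.81 to 3.27], miR-467d-5p at 2.31 [2.03 to 2.59] and miR-467c-5p at 1.93 [1.42 to 2.43]. miR-467a-5p had 592 normalised CPM with RA and 293 untreated in Wt1 KO cells, against 115 with RA and 373 untreated in WT cells, so it was higher with RA in Wt1 KO and lower in WT. At the other end, miR-669a-3p/miR-669o-3p was at 0.03 [-0.53 to 0.58]. Members of this cluster can share reads, and those that matched several entries were not counted.

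A difference of responses can arise where the genotypes part with RA or where they start apart and meet, and the data held both. The same size rule was put on the ratio of Wt1 KO over WT, and level here means not called by it. Of the 75 higher calls, 35 were higher in Wt1 KO with RA and level untreated. Another 23 were level with RA and lower in untreated Wt1 KO. Over these 23 the median ratio of Wt1 KO over WT was 0.13 with RA and -1.92 untreated, and the median RA response was 1.84 in Wt1 KO and -0.35 in WT. Of the 52 lower calls, 30 were lower in Wt1 KO with RA and level untreated, and 8 were level with RA and higher in untreated Wt1 KO. For all 345 miRNAs, Wt1 KO was higher than WT for 17.4% and lower for 18.3% with RA, and higher for 11.0% and lower for 15.9% untreated, or 35.7% in either direction with RA and 27.0% untreated. The call of a difference uses the same libraries, so these counts describe the calls and are no further evidence for them.

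**Figure D3:**
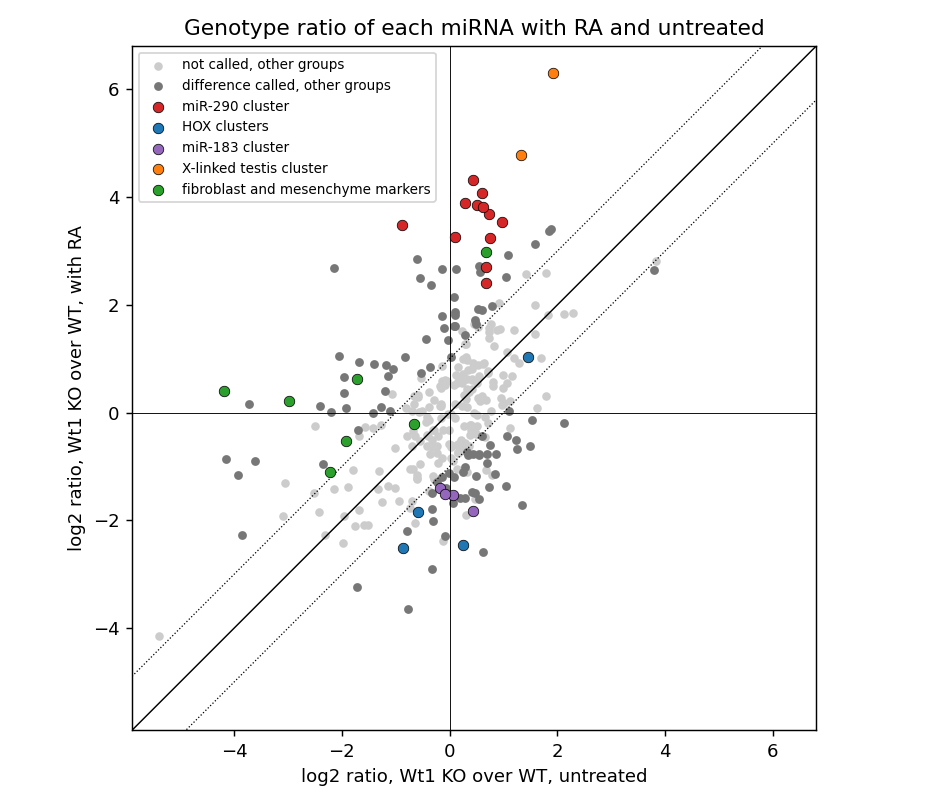
Each point is 1 miRNA with reads in all 4 libraries, placed by its log2 ratio of Wt1 KO over WT with RA (y axis) and untreated (x axis). Points above the solid line have a higher RA response in Wt1 KO, and the dotted lines mark a difference of 1. The miR-290 cluster sits high on the y axis and near 0 on the x axis, while miR-21a-3p and miR-21a-5p sit near 0 with RA and at -4.18 and -2.98 untreated.

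miR-181a-5p, known from lymphocytes and from differentiating cells of many tissues, rose in both genotypes and more steeply in Wt1 KO. It had 18956 normalised CPM with RA and 364 untreated in Wt1 KO cells, against 42196 with RA and 5558 untreated in WT cells, a response of 5.70 in Wt1 KO and 2.92 in WT and a difference of 2.78 [2.63 to 2.92]. The low value is the untreated Wt1 KO library, and with RA the ratio of Wt1 KO over WT was still -1.15. miR-181b-5p, from the same 2 hairpin pairs, had 2453 normalised CPM with RA and 44.6 untreated in Wt1 KO cells, against 4476 with RA and 797 untreated in WT cells and a difference of 3.28 [2.87 to 3.69]. The 3p arm miR-181a-1-3p, which comes from the copy on chromosome 1 (chr1:137966508-137966529), had 5 reads with RA and 0 untreated in Wt1 KO cells, against 492 and 18 in WT cells. With the untreated Wt1 KO count set at 3 reads its difference was at least 2.29.

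The chromosome 8 miRNAs with the same seed went the other way. miR-181d-5p (chr8:84178759-84178781, in an intron of Nanos3) had 574 normalised CPM with RA and 2506 untreated in Wt1 KO cells, against 1767 with RA and 1727 untreated in WT cells. The untreated level was highest in Wt1 KO and the level with RA lowest there, a difference of -2.15 [-2.52 to -1.78]. miR-181c-5p (chr8:84178924-84178945) had 990.4 normalised CPM with RA and 1929 untreated in Wt1 KO cells, against 2327 with RA and 2343 untreated in WT cells and, at -0.95 [-1.23 to -0.66], fell just short of the size rule. miR-181c-3p was at -1.06 [-1.78 to -0.33], a call not kept under all 5 scalings. The 4 miR-181 miRNAs that share the seed thus ran from -2.15 to 3.28, with 2 higher and 1 lower call, beside 21.7% and 15.1% of all 345 miRNAs. Reads that matched several entries were not counted.

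miR-21a, which is abundant in many differentiating and proliferating cells and is encoded at the end of Vmp1, moved in opposite directions in the 2 genotypes on both arms. miR-21a-5p (chr11:86584120-86584141) had 1064 normalised CPM with RA and 305 untreated in Wt1 KO cells, against 921 with RA and 2406 untreated in WT cells, with responses of 1.81 in Wt1 KO and -1.38 in WT. The difference was 3.19 [2.89 to 3.50] for miR-21a-5p and 4.58 [3.71 to 5.45] for miR-21a-3p, which had 14 reads with RA and 43 untreated in Wt1 KO cells, against 680 and 608 in WT cells. With RA the ratio of Wt1 KO over WT was 0.21 for the 5p arm and 0.40 for the 3p arm, neither of them called. miR-22-3p had 22639.7 normalised CPM with RA and 15082 untreated in Wt1 KO cells, against 32464 with RA and 57033 untreated in WT cells and a smaller difference of 1.40 [1.34 to 1.46].

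miR-92a-1-5p is the less abundant product of a hairpin within Mir17hg (chr14:115044437-115044459) and stood apart from its cluster. It had 1027 normalised CPM with RA and 107 untreated in Wt1 KO cells, against 919.7 with RA and 1408 untreated in WT cells, and the untreated Wt1 KO library alone was low. Its difference was 3.88 [3.52 to 4.24], while the major product miR-92a-3p, which a second hairpin on the X chromosome also makes, was at -0.48 [-0.51 to -0.45]. The other 6 measured miRNAs of the miR-17 to miR-92a cluster ran from -1.66 for miR-18a-5p, a call not kept under all 5 scalings, to 0.34, with no other higher call. Further miRNAs that were level with RA and lower in untreated Wt1 KO included let-7e-5p, at 1.39 [0.97 to 1.82], miR-28a-5p, at 2.54 [2.04 to 3.05], and miR-532-5p of the Clcn5 intron cluster, at 1.86 [1.58 to 2.15]. miR-501-3p of that same cluster went the other way, at -2.58 [-3.70 to -1.46], from 6 reads with RA and 746 untreated in Wt1 KO cells.

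The miRNAs of the HOX clusters, which RA switches on together with the neighbouring HOX genes, had 5 measured members, of which 3 rose in both genotypes and rose less in Wt1 KO. A lower difference was called for these 3, and for 15.1% of all 345 miRNAs. miR-10a-5p (chr11:96317186-96317208, in the Hoxb cluster) had 1443 reads with RA and 102 untreated in Wt1 KO cells, against 491094 and 66 in WT cells, which were 13356, 72.3, 73357 and 60.6 normalised CPM in the same order. The untreated levels were close and the RA levels parted, with responses of 7.52 in Wt1 KO and 10.23 in WT and a difference of -2.71 [-3.16 to -2.26]. miR-10b-5p (chr2:74726074-74726096, in introns of Hoxd3 and Hoxd4) had 3832 normalised CPM with RA and 90.7 untreated in Wt1 KO cells, against 21770.0 with RA and 165 untreated in WT cells and a difference of -1.64. miR-615-3p (chr15:103014969-103014990, in an intron of Hoxc5) had 1064 normalised CPM with RA and 17.7 untreated in Wt1 KO cells, against 3846 with RA and 26.6 untreated in WT cells and a difference of -1.26 [-2.07 to -0.45]. The other 2 measured members were not called. miR-196a-5p had 157 normalised CPM with RA and 117 untreated in Wt1 KO cells, against 79.2 with RA and 42.2 untreated in WT cells and a difference of -0.43 [-1.26 to 0.41], with neither response called. miR-10a-3p had 16 and 813 reads with RA in Wt1 KO and WT and none in either untreated library, so it rose in both and no difference can be given. The median of the 5, with miR-10a-3p at the value that its prior count gives, lay at -1.31 relative to all miRNAs, and the call of miR-10b-5p was lost as CPM without the stem cell clusters, that of miR-615-3p under both CPM scalings and when libraries were thinned, and that of miR-10a-5p when libraries were thinned.

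The let-7 family, whose products oppose the stem cell programme, held calls in both directions. Among its 9 measured members let-7c-5p and let-7i-5p were lower, at -1.33 [-1.55 to -1.10] and -1.32 [-2.35 to -0.29], let-7e-5p was higher and let-7a-5p was at -0.03 [-0.60 to 0.53]. The let-7 median of -0.36 changes sign with the scaling. let-7c-5p had 2351 normalised CPM with RA and 914 untreated in Wt1 KO cells, against 4019 with RA and 622 untreated in WT cells, a rise in both genotypes and a smaller one in Wt1 KO. The calls of let-7c-5p and let-7i-5p were lost under both CPM scalings. Of the 9 miR-99, miR-100 and miR-125 miRNAs, 2 were higher, the minor arms miR-99b-3p at 1.39 [0.84 to 1.93] and miR-125b-1-3p at 1.58 [0.37 to 2.80]. Over all 345 miRNAs 21.7% were higher and 15.1% lower, so 2 of 9 higher is near the share of all. The median of the 9 was 1.02, or 0.98 above that of all miRNAs, and 0.33 with miR-99a-5p at its bound. miR-100-5p was at 1.18 [-0.87 to 3.22], from 2 reads in untreated Wt1 KO, and miR-99a-5p had 39 reads with RA and 0 untreated in Wt1 KO cells, against 3317 and 4 in WT cells, so its difference has only a lower bound, and neither was called. The most abundant members were not called either, with miR-125a-5p at -0.14 [-0.24 to -0.04], miR-125b-5p at 0.05 [-0.34 to 0.43] and miR-99b-5p at -0.56 [-0.65 to -0.48]. miR-125b-5p had 990.4 normalised CPM with RA and 98.5 untreated in Wt1 KO cells, against 4781 with RA and 490.2 untreated in WT cells, so each genotype rose from its own untreated level by about the same ratio, 3.33 in Wt1 KO and 3.28 in WT, and Wt1 KO stayed lower in both states.

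The 3 hairpins of the miR-183 cluster, which sensory organs express strongly, gave 4 measured miRNAs, all of them lower with RA in Wt1 KO and none called in WT. miR-182-5p (chr6:30165962-30165986, minus strand) had 14819 normalised CPM with RA and 45155 untreated in Wt1 KO cells, against 42919 with RA and 43408 untreated in WT cells. The Wt1 KO library with RA was the one low value, and the difference was -1.59 [-1.66 to -1.52]. miR-183-5p (chr6:30169711-30169732) had 2805 normalised CPM with RA and 10879.9 untreated in Wt1 KO cells, against 8047 with RA and 11509 untreated in WT cells and a difference of -1.44 [-1.60 to -1.27]. miR-183-3p was at -1.21 [-1.93 to -0.50] and miR-96-5p at -2.27 [-4.08 to -0.45], the last from 2 reads in Wt1 KO with RA. All 4 measured members had a lower difference, beside 15.1% of all 345 miRNAs, with a median of -1.56 relative to all miRNAs. These 4 calls were lost under both CPM scalings.

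The imprinted Dlk1-Dio3 locus on chromosome 12, expressed from the maternal allele and a marker of fully potent mouse stem cells, gave 19 lower and 4 higher calls among 67 measured miRNAs. Shares over all 345 miRNAs were 15.1% lower and 21.7% higher. Of the 19 lower calls 6 were kept under all 5 scalings. Its median was -0.76, or -0.80 relative to all miRNAs, and reached -0.04 under the scaling without the stem cell clusters. miR-541-5p (chr12:109742422-109742446, in an intron of Mirg) had 12829 normalised CPM with RA and 33120.2 untreated in Wt1 KO cells, against 35477 with RA and 24941 untreated in WT cells and a difference of -1.88 [-1.96 to -1.80]. miR-409-5p (chr12:109743172-109743194, also in Mirg) had 7 reads with RA and 528 untreated in Wt1 KO cells, against 2782 and 266 in WT cells and a difference of -3.20 [-4.25 to -2.14], and miR-409-3p was at -1.34 [-1.45 to -1.23], a call not kept under all 5 scalings. miR-679-5p (chr12:109715587-109715608) had 26 reads with RA and 943 untreated in Wt1 KO cells, against 4236 and 351 in WT cells and a difference of -2.42. Against WT, this miRNA alone was lower in Wt1 KO with RA, at -1.37, and higher untreated, at 1.05.

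Other abundant miRNAs of the locus were not called. miR-127-3p had 198222 normalised CPM with RA and 209726 untreated in Wt1 KO cells, against 160563 with RA and 138434 untreated in WT cells and a difference of -0.30 [-0.32 to -0.27], miR-411-5p was at 0.18 [0.13 to 0.24] and miR-434-3p at 0.26 [0.20 to 0.31]. Grouping hairpins that lie within 10 kb of the next on the same strand gave 2 stretches of the locus with 3 or more measured miRNAs. miR-341-3p and miR-370-3p, which lie between these stretches, were in neither. The distal one, from Mir379 to Mir3072 at chr12:109709065-109747949, had 16 of 45 miRNAs lower and 2 higher with a median of -0.92. The proximal one, from Mir770 to Mir136 at chr12:109563710-109595387, had 3 of 18 lower and 2 higher with a median of -0.26, and its higher members were both arms of miR-136, miR-136-5p at 1.71 [0.68 to 2.74] and miR-136-3p at 1.31 [0.83 to 1.79]. Of all 345 miRNAs 15.1% were lower and 21.7% higher, so 3 of 18 lower in the proximal stretch is near the share of all. The difference between the stretches was not tested.

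Among the other lower calls, miR-200b-3p and miR-200c-3p of the miR-200 family, whose products restrain the loss of epithelial character, were at -1.50 [-1.87 to -1.14] and -2.88 [-4.23 to -1.53], the second from 4 reads in Wt1 KO with RA. The call of miR-200b-3p was lost under both CPM scalings. The remaining 5 measured members were not called, which for miR-429-3p and miR-200a-5p did not hold under all 5 scalings. miR-429-3p, with the seed of miR-200b-3p and miR-200c-3p, was at 0.58, and was called higher as CPM of the total, at 1.18. miR-200a-5p was at 1.25, and miR-200a-3p, with a different seed, was at 0.04 [-0.82 to 0.90]. miR-378a-3p, which is encoded in a metabolic regulator gene, had 1768 normalised CPM with RA and 4212 untreated in Wt1 KO cells, against 2842 with RA and 1766 untreated in WT cells and a difference of -1.93 [-2.15 to -1.72]. miR-298-5p had 7349 normalised CPM with RA and 13574 untreated in Wt1 KO cells, against 25521 with RA and 17055 untreated in WT cells and a difference of -1.47 [-1.57 to -1.36], a call lost under both CPM scalings. The miR-30 family had 2 of 9 members lower, beside 15.1% of all 345 miRNAs. These were miR-30c-5p at -1.45 [-1.81 to -1.08] and miR-30d-5p at -1.17 [-1.49 to -0.86], both lost under both CPM scalings. The 13 lower calls kept under all 5 scalings included miR-10a-5p, miR-181d-5p, miR-200c-3p, miR-378a-3p, miR-378d, miR-501-3p and miR-708-5p, and 6 miRNAs of the Dlk1-Dio3 locus.

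**Figure D4:**
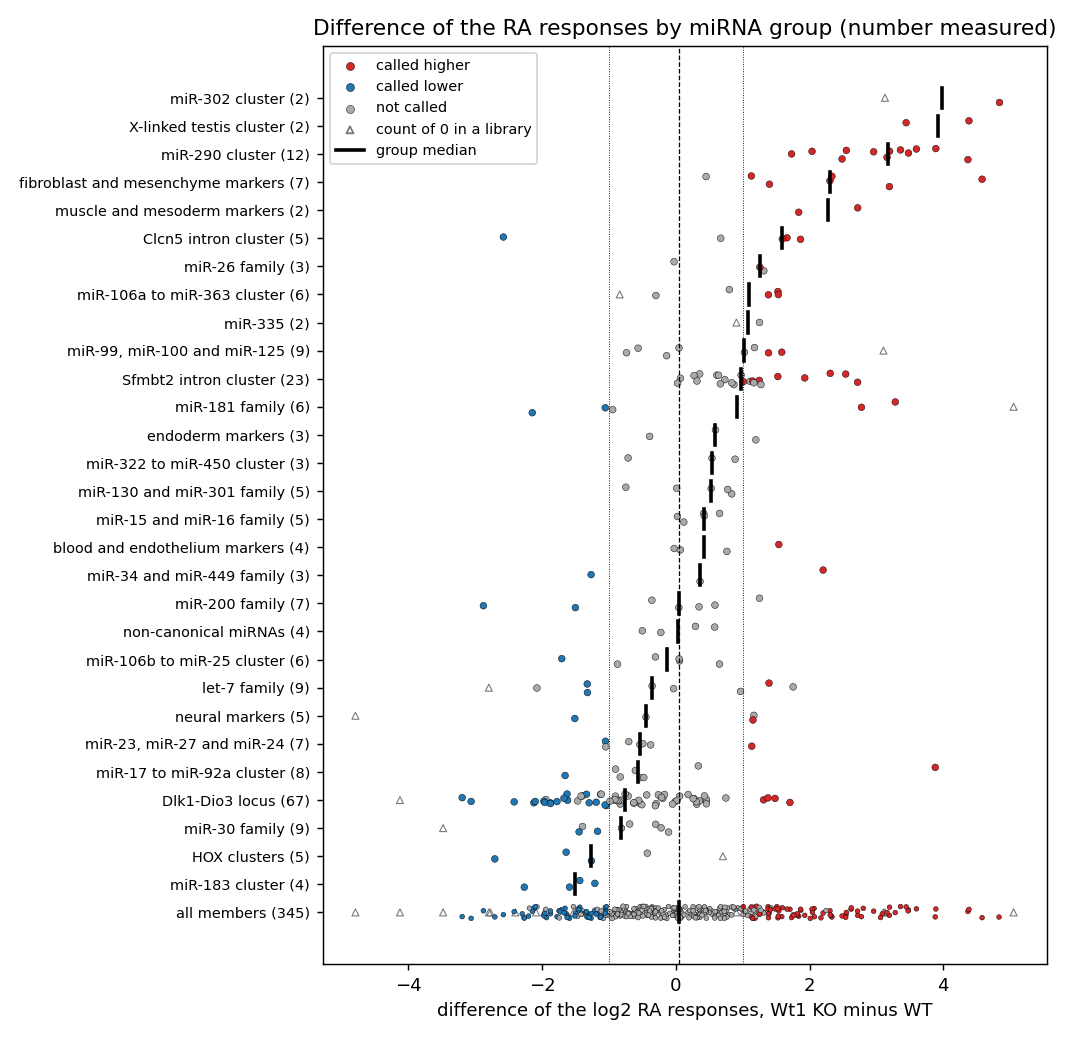
Difference of the log2 RA responses, Wt1 KO minus WT (x axis), for every measured miRNA of each group with at least 2 measured members and for all 345 (y axis, number measured in brackets). Bars mark group medians, dotted lines the size rule and the dashed line the median of all miRNAs, and triangles are miRNAs with a count of 0 in a library, whose value depends on the prior count. The miR-290 cluster lies wholly above 1 and the miR-183 cluster wholly below -1.

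Markers of other cell types were looked at beside these differences. Of the fibroblast and mesenchyme list 6 of 7 measured miRNAs had a higher response in Wt1 KO, beside 21.7% of all 345, and the list median lay 2.26 above that of all miRNAs. Besides miR-21a-5p, miR-21a-3p and miR-22-3p these were miR-222-3p at 2.33 [0.42 to 4.25], miR-199a-3p/miR-199b-3p at 2.30 [1.72 to 2.89] and miR-31-5p at 1.13 [0.67 to 1.59]. The list summed to 25639 normalised CPM with RA and 16077 untreated in Wt1 KO cells, against 34697 with RA and 62052 untreated in WT cells, so the highest sum was in untreated WT. All 15 entries had a read in at least 1 of the 4 libraries, and 4 had none in Wt1 KO with RA. Of the 7 measured, the ratio of Wt1 KO over WT was called higher for 1 and lower for 1 with RA, and lower for 5 untreated. The 1 that was higher with RA was miR-199a-3p/miR-199b-3p. It had 963 normalised CPM with RA and 66.6 untreated in Wt1 KO cells, against 122 with RA and 41.3 untreated in WT cells.

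Of 16 muscle and mesoderm entries 2 were measured, and both had a higher response in Wt1 KO, miR-143-3p at 1.84 [1.57 to 2.11] and miR-133a-3p at 2.72 [1.70 to 3.74], the second lost when libraries were thinned. miR-143-3p had 3443 normalised CPM with RA and 438 untreated in Wt1 KO cells, against 456 with RA and 207 untreated in WT cells, and every entry for miR-1a, miR-1b and miR-206 had no read in the 4 libraries. The neural list had 1 of 5 higher, miR-128-3p at 1.15 [0.58 to 1.73], and 1 lower, miR-9-5p at -1.51 [-2.15 to -0.88], the blood and endothelium list 1 of 4 higher, miR-126a-5p at 1.54 [0.39 to 2.69], and the endoderm list none of 3. The shares over all 345 miRNAs were 21.7% higher and 15.1% lower, so the neural and the blood counts are near those of all miRNAs. The call of miR-9-5p was lost under both CPM scalings, at -0.91 as CPM of the total, and those of miR-128-3p and miR-126a-5p when libraries were thinned, at 1.12 and 0.14. Under both CPM scalings miR-128-1-5p was also called higher, at 1.76 as CPM of the total. In Wt1 KO with RA, untreated Wt1 KO, WT with RA and untreated WT, in that order, the summed levels were 629, 700.2, 508, 386 normalised CPM for the neural list, 491, 3096, 154, 929.9 for blood and endothelium and 361, 178, 367, 183 for endoderm. miR-223-3p, miR-144-3p and miR-451a, markers of blood cells, had no read in the 4 libraries. One entry known to lie within ribosomal RNA sequence, miR-6240, had 2055 normalised CPM with RA and 308 untreated in Wt1 KO cells, against 363 with RA and 453 untreated in WT cells, a difference of 3.06 [2.79 to 3.33]. The part of other cell types or of RNA quality in the differences was not tested.

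For 63 of the 330 miRNAs with reads in all 4 libraries the whole interval lay between -1 and 1, so a 2-fold difference of the responses was outside the counting error under this scaling. They included miR-26a-5p at -0.03 [-0.11 to 0.05], miR-25-3p at 0.05 [-0.05 to 0.15], miR-16-5p at 0.42 [0.27 to 0.56], miR-130a-3p at 0.53 [0.36 to 0.69] and miR-93-5p at -0.31 [-0.46 to -0.15]. miR-26a-5p had 14532 normalised CPM with RA and 7556 untreated in Wt1 KO cells, against 18249 with RA and 9309 untreated in WT cells, with responses of 0.94 in Wt1 KO and 0.97 in WT. miR-26b-5p, with the same seed, was higher at 1.26 [1.04 to 1.48]. For 126 miRNAs the interval reached more than 1 to either side, and a 2-fold difference was not detectable at this depth. miR-150-5p, a blood miRNA, had 204 normalised CPM with RA and 2937 untreated in Wt1 KO cells, against 59.5 with RA and 824 untreated in WT cells, a large fall in both genotypes with a difference of -0.03 [-0.65 to 0.60].

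Clusters known to drive cell division gave calls in both directions, but the lower calls, of miR-25-5p and miR-18a-5p, were not kept under all 5 scalings. Of the 6 measured miRNAs of the miR-106a to miR-363 cluster on the X chromosome, a copy of the miR-17 cluster, 3 were higher in Wt1 KO and none was lower. miR-363-3p had 676 normalised CPM with RA and 2174 untreated in Wt1 KO cells, against 179.8 with RA and 1501 untreated in WT cells, a fall in both genotypes with a difference of 1.38 [1.03 to 1.74]. miR-20b-5p was at 1.53 [0.73 to 2.34] and miR-18b-3p at 1.53 [0.44 to 2.61], and both calls were lost when libraries were thinned. The related miR-106b to miR-25 cluster had 1 lower call, miR-25-5p at -1.71, and no higher one among 6. There miR-106b-5p was at 0.65 [0.23 to 1.07], but under both CPM scalings it was called higher, at 1.25 as CPM of the total. In the miR-17 to miR-92a cluster miR-92a-1-5p was the higher call, miR-18a-5p was the lower one, at -1.66, and miR-17-5p was at -0.54 [-0.84 to -0.23]. Among all 345 miRNAs 21.7% were higher and 15.1% lower, and the difference between these clusters was not tested. Outside these clusters, none of the 5 measured miR-15 and miR-16 miRNAs and none of the 5 of the miR-130 and miR-301 family was called, which did not hold under other scalings. As CPM of the total miR-15a-5p was called higher at 1.25, miR-16-5p at 1.01, miR-130a-3p at 1.13 and miR-301a-3p at 1.43, and miR-301a-3p also by the median of ratios, at 1.09.

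Small groups with members in both directions remain. In the miR-34 family, targets of p53, miR-34b-3p was higher at 2.20 [0.58 to 3.82] and miR-34a-5p lower at -1.27 [-1.79 to -0.74]. The call of miR-34b-3p was lost when libraries were thinned, at 1.23, and that of miR-34a-5p under both CPM scalings, at -0.67 as CPM of the total. miR-34a-5p had 296 normalised CPM with RA and 508 untreated in Wt1 KO cells, against 687 with RA and 482 untreated in WT cells, with neither response called by itself. miR-34c-5p had 1055 normalised CPM with RA and 240.2 untreated in Wt1 KO cells, against 1669 with RA and 487 untreated in WT cells, a rise in both with a difference of 0.36 [0.03 to 0.69]. The Clcn5 intron cluster had 3 of 5 higher and 1 lower, beside 21.7% and 15.1% of all 345 miRNAs. Among the higher ones was miR-188-5p at 1.66 [0.67 to 2.66], a call lost when libraries were thinned. miR-335-3p, made within the imprinted Mest gene, had 8 reads with RA and 7 untreated in Wt1 KO cells, against 9325 and 243 in WT cells, so Wt1 KO was lower in both states, and its difference of 1.25 [-0.18 to 2.68] was not called. miR-351-5p of the miR-322 to miR-450 cluster had 2119.6 normalised CPM with RA and 826 untreated in Wt1 KO cells, against 6658 with RA and 1579 untreated in WT cells, a rise in both genotypes with a difference of -0.71 [-0.93 to -0.50].

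Arms of 1 hairpin mostly had differences of the same sign. Of 78 hairpins with both arms measured, 60 had differences of the same sign, 11 had both arms called in the same direction and 0 had opposite calls, while in 32 only 1 arm was called. Among all 345 miRNAs 36.8% were called in either direction, and whether the counts of arm pairs depart from that share was not tested. Hairpins with both arms called included miR-290a, miR-291a, miR-292a, miR-293, miR-294 and miR-295, all of the miR-290 cluster. In 12 hairpins the arms lay at least 1 apart with an interval that excluded 0. The 5p arm minus the 3p arm was -1.95 [-2.50 to -1.40] for miR-99b, 2.32 [1.40 to 3.24] for miR-28a, -1.91 [-2.70 to -1.12] for miR-379 and -1.86 [-2.92 to -0.80] for miR-409. The arms of a hairpin are cut from the same transcript and are not independent observations.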

How the data were processed

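Small RNA was sequenced from mouse embryonic stem cells. The labels' protocols describe ligation of adapters to total RNA, with the gel bands of miRNAs and slightly longer small RNAs pooled. The deposited tables hold raw counts per mature miRNA, which per the file headers are unique matches and multi-matches. Sources used here do not give the aligner, mismatches, miRBase version or genome build. Unique-match counts were used as deposited.

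Scaling used the TMM method (trimmed mean of M values) of edgeR 4.0.16 (R 4.3.3) on all 6 libraries, with factors of 1.29 for Wt1 KO with RA, 0.798 for untreated Wt1 KO, 1.10 for WT with RA and 1.02 for untreated WT. edgeR's test needs replicates, so none was run. Log2 ratios had a prior count of 0.5. The 345 miRNAs held 99.5% of the reads in Wt1 KO with RA and up to 99.8% in the others. The mean count is unscaled, so WT with RA weighs most in it. A miRNA can thus pass the minimum through its count in WT with RA alone, a count that lowers the difference. The part of this in the split of the calls was not tested. Of the 345, 15 had a count of 0 in a library and were called only from a bound with 3 counts there. Intervals of differences used the delta method on 4 counts, and those of ratios the exact conditional binomial (scipy 1.17.1). The intervals of differences were checked on simulated Poisson counts only, and those of ratios were not checked. Poisson counts hold the counting error that the intervals assume, so the check could not speak to PCR copies or to spread between libraries.

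The miRNAs, lists and size rule were chosen with earlier results of these data known. Named miRNAs were the 10 with the highest and the 10 with the lowest interval bounds, those called in opposite directions, up to 4 of each list by mean count and the 10 most abundant. Others named were chosen after their values were seen. Coordinates come from matching names to the RefSeq miRNA table (GRCm38.p6), and host genes from GENCODE M21. Alternatives were other scalings (DESeq2 1.42.0 for the median of ratios), other minimum counts, a prior count of 2, exact intervals, thinned libraries and added multi-matches.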

Additional observations from a re-analysis of the deposited data

Results flagged for a closer look

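5 miRNAs were flagged because the Wt1 KO library moved up with RA and the WT library moved down, both past the size rule. The difference between the genotypes was not tested, as there is 1 library per group. The differences of the log2 responses were 4.58 for miR-21a-3p, 4.38 for miR-470-5p, 3.44 for miR-871-3p, 3.19 for miR-21a-5p and 2.72 for miR-467a-5p. In the multi-match counts, which entered only the alternative that adds them to the unique matches, the entry miR-466a-3p/miR-466e-3p had 2942 reads over the 4 libraries, namely 43 with RA and 1152 untreated in Wt1 KO and 831 with RA and 916 untreated in WT, against 7, 256, 148 and 115 unique matches in the same order.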

How the results depend on the processing

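The number of higher differences, 75, became 124 as CPM of the total, 133 as CPM with the miR-290 and the miR-302 cluster left out, 137 with no minimum mean count, 46 with a minimum of 200 and 45 with the deeper libraries thinned to the shallowest. The number of lower differences, 52, became 18 and 13 under the 2 CPM scalings. The other alternatives gave between 67 and 111 higher and between 38 and 54 lower. The median of all differences, 0.04, was 0.64 as CPM of the total, 0.76 without the clusters, 0.30 by the median of ratios, 0.27 with a minimum of 10, 2.42 with none, 0.26 with a prior count of 2 and -0.12 thinned. A scaling moves every difference by the same amount, another minimum changes how many miRNAs are compared (1136 entries with none, 218 with 200), and thinning leaves fewer reads. With no minimum, entries with counts near 0 also take a value that depends on the prior count and the unequal depths. The part of this in the median of 2.42 was not tested. For the prior count of 2 the cause of the shift was not tested. No named called miRNA changed sign under any of the 13 alternatives. Of 57 named calls, 33 were kept under each alternative that could give a value, 26 of 34 higher and 7 of 23 lower. The lowest shift by a scaling was -0.04 and the highest 0.72, so the scalings bore mainly on the lower calls. miR-10a-5p lost its call when libraries were thinned, at -1.46, with few untreated reads left. No replicate could be left out, and no paired analysis was possible because each group has 1 library, so no result can be given without the shallow Wt1 KO library with RA.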
